A study of Mus musculus with 6 samples.

Results

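The RNA of monocytic myeloid-derived suppressor cells (M-MDSCs) sorted from the lungs of mock-treated mice was compared with that of M-MDSCs sorted from the bone marrow of mock-treated mice, across all genes on the array. The samples were the Cy3 (green) channel of all 6 arrays of the series, 3 with lung RNA and 3 with bone marrow RNA, which is 6 of its 12 RNA samples. The other 6 samples lay in the Cy5 channel of the same arrays and came from mice given Aza plus entinostat. All mice were C57BL/6, and the mock mice were 6 to 8 weeks old and received vehicle. The cells were sorted by FACS, and each mock RNA came from 1 to 2 mice, against 3 to 6 pooled mice for a treated RNA. The surface markers of the sort and the tumour status of the mice are not given in the sources used here. Each tissue was hybridised on a slide of its own and scanned on its own, so slide, scan and tissue cannot be told apart in any value below.

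M-MDSCs are monocyte-like cells that restrain T cells through arginase, nitric oxide, reactive oxygen species and checkpoint ligands. Monocytes and neutrophils are made in the bone marrow, where dividing progenitors first fill primary granules with proteases and myeloperoxidase and neutrophil precursors later add secondary granule proteins such as lactoferrin and cathelicidin. Monocytes leave the marrow through CCR2, follow chemokines into tissues and can take on macrophage or dendritic cell features there. The lung also holds alveolar macrophages, which clear surfactant lipids, and interstitial macrophages, which make C1q and present antigen on MHC class II.

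In mock mice the M-MDSCs of lung and of bone marrow had similar quantile-normalized signals for several monocyte markers on the probes used. Of 19 tested monocyte markers, however, 8 were higher in lung and 5 lower, and 4 and 2 of these differed over 2-fold. Other programmes differed by large amounts. Lung cells were lower in the genes of primary and secondary granules and of cell division, with Mpo, Ctsg, Elane and Camp among the largest differences. The progenitor factors Myb, Cebpe and Gfi1 were also lower, but of 19 tested stem and progenitor genes 10 were higher in lung and 5 lower. Such counts are to be read beside all genes, of which 35.6% were higher in lung and 33.4% lower. Lung cells were higher in genes of macrophages, MHC class II, complement C1q, chemokines, immediate early factors and NF-kB targets, and also in markers of lung epithelium, endothelium, fibroblasts and plasma cells. In such sorted pools, fewer cells of a type and less RNA per cell cannot be told apart.

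Values below are log2 normalized Cy3 signals, given for replicates 1, 2 and 3 of each tissue, and a difference is lung minus bone marrow on that scale with its standard error (SE) from limma. Of 39429 probes, 25285 were well above background on at least 2 arrays of a tissue, and they stood for 20215 genes, each read from its brightest kept probe. Well above background were 59.6% to 61.9% of the probes on the lung arrays and 49.5% to 55.6% on the bone marrow arrays, where replicate 3 was lowest. No probe was saturated, and negative control spots read 13.8 to 16.7 units above their local background on the lung slide and 37.3 to 41.0 on the bone marrow slide. After correction, less the offset, they read 8.40 to 25.75 on the lung arrays and 8.35 to 52.72 on the bone marrow arrays. With background taken from these spots 14047 genes were called and 3780 were over 2-fold, beside the 13949 and 3356 of the main fit below. Beyond that alternative, the part of this slide difference in the calls was not tested. Over genes, which are not independent replicates, the arrays correlated at 0.992 to 0.998 within lung, at 0.995 to 0.997 within bone marrow and at 0.911 to 0.919 between the tissues. limma called 13949 genes (69%) at a Benjamini-Hochberg adjusted p under 0.05, of which 7191 (35.6%) were higher in lung and 6758 (33.4%) lower. Differences over 2-fold were called for 3356 genes (16.6%), 1707 (8.44%) higher and 1649 (8.16%) lower in lung, and the median difference over all genes was 0.027. The 3 lung and 3 bone marrow values did not overlap for 15208 genes (75.2%), so a call or a lack of overlap was common and counts over gene lists are to be read beside these shares. The number of arrays, 3 a tissue, limits the precision. The 46 gene lists held 769 genes, of which 724 passed the filter on dim probes; a gene that passed only through the tissue where it was high had to differ, so the counts describe the lists and carry no test of them.

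Among genes that differed over 8-fold, 143 were higher in lung and 111 lower. Fewer probes were well above background on the bone marrow arrays (49.5% to 55.6%) than on the lung arrays (59.6% to 61.9%). The part of this slide difference in the next counts was not tested. For 53 of the 143 the probe was not well above background on any bone marrow array, and for 3 of the 111 it was not well above background on any lung array. For such genes a fold is given as "at least", from the mean of the bright tissue against the dim tissue's mean of, on each array, the higher of the probe's own signal and the lowest signal of any probe well above background there. That lowest signal was low, at 5.65 to 6.26 on the bone marrow arrays and 5.77 to 6.34 on the lung arrays. Genes such as Itgax and Sftpc lay above it on each bone marrow array. Their "at least" fold is therefore the plain fold and not a bound from a detection limit.

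**Figure D1:**
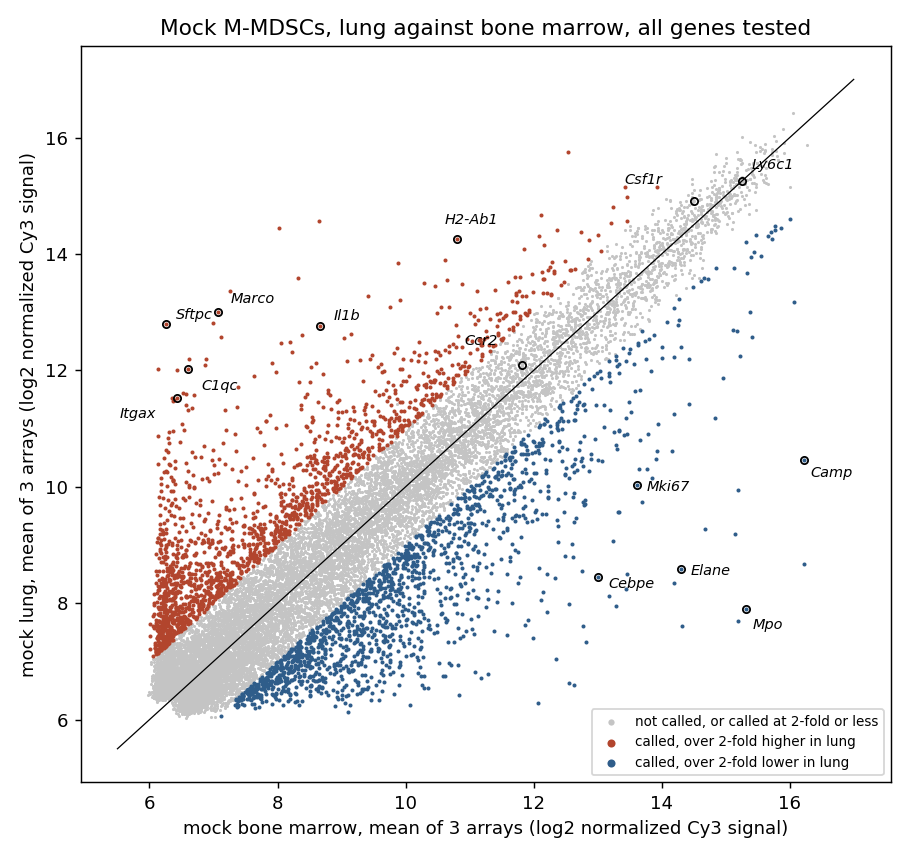
Each point is a gene, with the mean log2 normalized Cy3 signal of the 3 mock lung arrays on the vertical axis and of the 3 mock bone marrow arrays on the horizontal axis; red and blue mark the 1707 and 1649 genes over 2-fold higher and lower in lung. Ly6c1 and Ccr2 lie near the diagonal, Sftpc, Marco and C1qc far above it, and Mpo, Camp and Elane far below it.

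Markers of monocytes were present on every array of both tissues: all 19 tested members of the list were well above background on all 3 lung and all 3 bone marrow arrays. Of these, 8 rose in lung, 5 fell and 6 did not pass, where 35.6% of all genes rose and 33.4% fell. Over 2-fold, 4 rose and 2 fell, beside 8.44% and 8.16% of all genes. The median difference was 0.019, close to that of all genes. That balance depended on the scaling: with arrays scaled by their median alone 13 rose, 3 fell and the median was 0.64, against -0.052 over all genes, and with the mean of all probes 7 rose, 8 fell and the median was -0.14. Between 5 and 8 rose with any 1 array left out, and the count was 5 without lung replicate 2, without bone marrow replicate 1 and without bone marrow replicate 2. Ly6c1, of the Ly6C family that marks inflammatory monocytes, had 14.96, 15.09 and 15.73 on the lung arrays, against 15.29, 15.24 and 15.25 on the bone marrow arrays. The groups overlapped, with lung replicate 3 highest, and the difference was 0.0015 ± 0.18 (adjusted p = 0.995), or -0.24 without that array (adjusted p = 0.0409), read from a probe at chr15:74875495-74875554 (mm9) that may also bind its near-identical neighbour Ly6c2. With median scaling Ly6c1 was higher in lung by 0.43 (adjusted p = 0.0286). The other Ly6c1 probe gave -0.78. Ccr2, the receptor for CCL2, had 12.14, 12.16 and 11.95 on the lung arrays, against 11.87, 11.66 and 11.90 on the bone marrow arrays, a difference of 0.27 ± 0.094 (adjusted p = 0.0327). Csf1r, the receptor for macrophage colony-stimulating factor, had 14.60, 15.12 and 14.98 on the lung arrays, against 14.45, 14.52 and 14.57 on the bone marrow arrays. Its lung values lay above the bone marrow values by 0.39 ± 0.13 (adjusted p = 0.0292), but another of its probes gave -2.03. Itgam, which encodes CD11b, had 11.62, 11.84 and 11.91 on the lung arrays, against 12.37, 12.01 and 11.76 on the bone marrow arrays, with overlap and a difference of -0.25 ± 0.15 (adjusted p = 0.174) on its brightest probe and -1.89 on the lowest of its 3. Without bone marrow replicate 3 the difference was -0.40 (adjusted p = 0.0431). The calls of Ccr2 and Csf1r depended on single arrays: Ccr2 did not pass without bone marrow replicate 1 or 2 or lung replicate 1 or 2 (adjusted p = 0.0513, 0.1, 0.0732 and 0.11). Csf1r did not pass without bone marrow replicate 1, 2 or 3 or lung replicate 2 or 3 (adjusted p = 0.0909, 0.0752, 0.0567, 0.093 and 0.0798). No probe was matched by name to Ly6g or Ly6c2, so the neutrophil marker of a Ly6G gate is not analysed here.

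The monocyte markers that did pass differed in direction. Cd14, the lipopolysaccharide co-receptor, rose to 13.77, 13.49 and 13.37 on the lung arrays, against 11.18, 10.49 and 10.29 on the bone marrow arrays, a 7.42-fold difference (2.89 ± 0.22, adjusted p = 2.09e-05). Lyz2, lysozyme M, rose by 2.03 ± 0.22 and Klf4, a transcription factor that monocytes need, by 1.26 ± 0.18. Hp, haptoglobin, fell to 14.41, 14.46 and 14.12 in lung, against 15.40, 15.49 and 15.53 in bone marrow (-1.15 ± 0.10, adjusted p = 3.72e-05). F13a1, the A chain of coagulation factor XIII, and Vcan, versican, fell by 1.09 and 0.98 on the log2 scale on their brightest probes. The other F13a1 probe gave -3.34, and the other Vcan probes gave -1.83 and -2.43. In each of these 6 genes the lung and bone marrow values did not overlap.

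The list of Ly6C-low (patrolling) monocyte genes had 15 of 18 tested members higher in lung and 2 lower, with a median difference of 1.49. Nr4a1, the nuclear receptor that these monocytes depend on and also an immediate early gene, had 15.76, 15.86 and 15.64 on the lung arrays, against 12.98, 12.13 and 12.49 on the bone marrow arrays (3.22 ± 0.19, adjusted p = 6.72e-06). Cd36, a scavenger receptor, had 9.16, 9.43 and 9.53 on the lung arrays, against 6.48, 6.66 and 6.78 on the bone marrow arrays (2.73 ± 0.12). Ace, angiotensin-converting enzyme, and Treml4 rose by 1.77 ± 0.19 and 1.44 ± 0.13. The lung values of these 4 genes all lay above the bone marrow values. Cx3cr1, the fractalkine receptor, had 11.94, 12.83 and 12.84 on the lung arrays, against 12.05, 11.31 and 11.97 on the bone marrow arrays, so lung replicate 1 lay among the bone marrow values; the difference was 0.75 ± 0.28 (adjusted p = 0.0446), and its other probe gave -0.38. It did not pass without any 1 of the arrays other than lung replicate 1 (adjusted p = 0.128, 0.12, 0.0566, 0.154 and 0.072). Pglyrp1, a peptidoglycan recognition protein of granules, fell by 1.75 on the log2 scale.

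**Figure D2:**
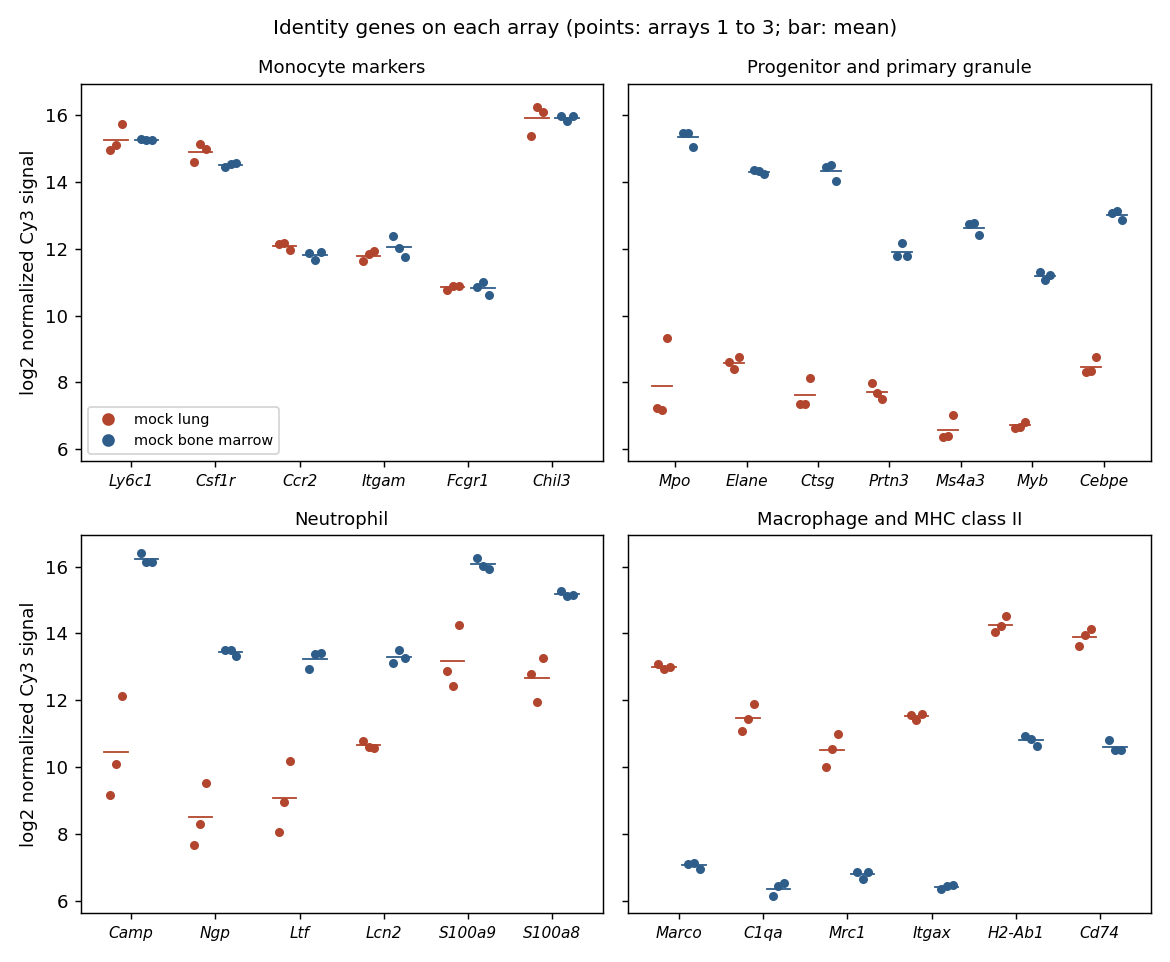
Log2 normalized Cy3 signal of identity genes, 1 point an array, with mock lung in red left of mock bone marrow in blue and a bar at each mean. Ly6c1, Csf1r, Ccr2 and Itgam lie at similar heights in both tissues on the probe used. Monocyte markers not shown include Cd14, Lyz2 and Klf4, higher in lung, and Hp, F13a1 and Vcan, lower in lung. Mpo, Elane, Camp and Ngp are lower in lung, and Marco, C1qa, Itgax and H2-Ab1 are higher in lung.

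Primary granule genes had a median of -2.06: 12 of 19 tested members fell in lung and 5 rose. It was the lowest median of the 46 lists, although that of mitosis genes was lower with no background correction, with the mean of all probes, and without lung replicate 1 or bone marrow replicate 1. Mpo, myeloperoxidase, had the largest fall of any gene with a symbol, with 7.22, 7.17 and 9.32 on the lung arrays, against 15.47, 15.47 and 15.03 on the bone marrow arrays. Lung replicate 3 stood above the other lung arrays and still far below bone marrow; the fold was 172 (-7.42 ± 0.53, adjusted p = 1.49e-05), and the other Mpo probe gave -6.93. Without lung replicate 3 the difference was -8.13. The probe lay at chr11:87617840-87617899 (mm9). Ctsg, cathepsin G, had 7.35, 7.34 and 8.14 on the lung arrays, against 14.45, 14.49 and 14.02 on the bone marrow arrays (-6.71 ± 0.23, adjusted p = 5.3e-07). Elane, neutrophil elastase, at chr10:79350902-79350961, had 8.61, 8.39 and 8.76 on the lung arrays, against 14.36, 14.33 and 14.22 on the bone marrow arrays (-5.72 ± 0.10, adjusted p = 5.48e-08). Ctsg was 105-fold and Elane 52.7-fold lower in lung, with no overlap.

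Ms4a3, a membrane protein of granulocyte-monocyte progenitors, had 6.36, 6.38 and 7.03 on the lung arrays, against 12.72, 12.76 and 12.39 on the bone marrow arrays (-6.03 ± 0.19). Prtn3, proteinase 3, had 7.97, 7.67 and 7.51 on the lung arrays, against 11.78, 12.17 and 11.79 on the bone marrow arrays (-4.19 ± 0.15). Fcnb, ficolin B, had 6.82, 6.75 and 6.88 on the lung arrays, against 11.34, 11.02 and 10.90 on the bone marrow arrays, and its 2 probes gave -4.27 and -4.09. Bone marrow was higher on every array for all 3 genes. Serpinb1a, the inhibitor of these proteases, fell with them by 3.03 on the log2 scale, as did Nkg7, a granule membrane protein, and Cst7, cystatin F, by 2.30 and 2.17. Prss57, another granule serine protease, was not well above background on any lung array and was at least 4.17-fold lower. The 5 members that rose were Lyz2, Calr, the chaperone calreticulin, Srgn, the granule proteoglycan serglycin, Plac8 and Igsf6, by 0.64 to 2.03, and 2 members overlapped between the tissues. The count of 5 higher and 12 lower was the same without any 1 of the 6 arrays.

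Stem and progenitor genes did not move as 1 group: 10 of 19 tested rose, 5 fell and the median was 0.29. The 3 that fell over 2-fold were Myb, Cebpe and Gfi1. Myb, the transcription factor of dividing progenitors, had 6.65, 6.68 and 6.81 on the lung arrays, against 11.29, 11.05 and 11.21 on the bone marrow arrays (-4.47 ± 0.085, adjusted p = 5.61e-08). Cebpe, C/EBP epsilon, which drives secondary granule genes, had 8.30, 8.33 and 8.75 on the lung arrays, against 13.06, 13.12 and 12.85 on the bone marrow arrays (-4.55 ± 0.13, adjusted p = 2.73e-07). Gfi1, a repressor needed for granulocytes, had 6.94, 6.80 and 7.19 on the lung arrays, against 10.78, 10.71 and 10.54 on the bone marrow arrays (-3.70 ± 0.11). In these 3 genes the highest lung value was over 3 log2 units below the lowest bone marrow value. Kit, the stem cell factor receptor, had 7.79, 8.002 and 7.87 on the lung arrays, against 7.96, 7.75 and 7.70 on the bone marrow arrays, with overlap (0.083 ± 0.093, adjusted p = 0.448). Cd34, found on progenitors and on endothelium, rose by 1.51 ± 0.17 on 1 probe, while the other gave 0.0045. Egfl7, which endothelial cells also make, rose by 3.48 ± 0.14, beside the endothelial markers described below. Gata2, a factor of stem cells, mast cells and endothelium, was not well above background on any bone marrow array and was at least 2.85-fold higher in lung. Meis1, a partner of Hox factors, and Cebpa, C/EBP alpha, rose by 0.81 ± 0.088 and 0.73 ± 0.16.

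Genes of mature neutrophils and secondary granules fell as well: 12 of 19 tested fell, 1 rose and the median was -1.75; with median scaling 12 fell and 4 rose. Camp, cathelicidin, had 9.17, 10.11 and 12.12 on the lung arrays, against 16.42, 16.13 and 16.13 on the bone marrow arrays. Ngp, neutrophilic granule protein, had 7.68, 8.30 and 9.53 on the lung arrays, against 13.50, 13.52 and 13.34 on the bone marrow arrays. Ltf, lactoferrin, had 8.07, 8.97 and 10.19 on the lung arrays, against 12.93, 13.38 and 13.40 on the bone marrow arrays. For all 3, lung replicate 3 was the highest lung array and replicate 1 the lowest, and every lung value stayed below every bone marrow value. The differences were -5.76 ± 0.64, -4.95 ± 0.40 and -4.16 ± 0.47, with adjusted p of 0.000146, 2.85e-05 and 0.000146. That of Camp was -5.11 without lung replicate 1 and -6.59 without lung replicate 3. S100a8 and S100a9, the subunits of calprotectin, which monocytes also make, differed in the same way. S100a9 had 12.88, 12.43 and 14.24 on the lung arrays, against 16.24, 16.03 and 15.94 on the bone marrow arrays (-2.89 ± 0.41, adjusted p = 0.000499). S100a8 had 12.79, 11.95 and 13.27 on the lung arrays, against 15.28, 15.13 and 15.15 on the bone marrow arrays (-2.52 ± 0.29, adjusted p = 0.000171). Lung replicate 3 was again the nearest to bone marrow.

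Lcn2, lipocalin 2, did not share that spread: it had 10.79, 10.59 and 10.57 on the lung arrays, against 13.12, 13.52 and 13.26 on the bone marrow arrays (-2.65 ± 0.12). Cd177, a neutrophil surface protein, and Itgb2l fell by 1.75 and 3.67 on the log2 scale. Receptors of mature neutrophils had smaller differences. Cxcr2 had low signals in both tissues, and the offset of 50 shrinks log2 differences between low signals. Cxcr2, the receptor that releases neutrophils from the marrow, had 6.64, 6.73 and 6.94 on the lung arrays, against 7.28, 7.01 and 7.14 on the bone marrow arrays (-0.37 ± 0.10, adjusted p = 0.0145). Without bone marrow replicate 1 it did not pass (adjusted p = 0.0513). Il1r2, the decoy receptor for interleukin 1, was the member that rose (1.55 ± 0.26). The summed signal of the neutrophil list, offset included, ran over the arrays between 31650 and 54970 in lung and between 229100 and 263500 in bone marrow, and the part of neutrophil lineage cells in the granule gene differences was not tested.

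Genes of mitosis were lower in lung almost throughout: 21 of 22 tested members fell, 18 of them over 2-fold, none rose, and the median was -1.92. Across all genes 33.4% fell and 8.16% fell over 2-fold. Mki67, the proliferation antigen Ki-67, had 10.41, 9.71 and 9.96 on the lung arrays, against 13.57, 13.55 and 13.72 on the bone marrow arrays (-3.59 ± 0.17, adjusted p = 1.91e-06), and its other probe gave -2.98. Ccnb2, cyclin B2, had 10.25, 9.34 and 9.54 on the lung arrays, against 12.73, 12.93 and 12.75 on the bone marrow arrays (-3.10 ± 0.22). Top2a, topoisomerase II alpha, had 8.33, 7.69 and 7.88 on the lung arrays, against 10.40, 10.64 and 10.62 on the bone marrow arrays (-2.59 ± 0.16). Lung replicate 1 was the highest lung array for each of these, and the tissues did not overlap. Cdc20, an activator of the anaphase-promoting complex, had 10.60, 9.38 and 9.32 on the lung arrays, against 11.45, 11.81 and 11.81 on the bone marrow arrays (-1.92 ± 0.32, adjusted p = 0.0012). Plk1, polo-like kinase 1, had 9.53, 8.69 and 8.84 on the lung arrays, against 11.02, 11.50 and 11.26 on the bone marrow arrays (-2.24 ± 0.22). Kif20a, a mitotic kinesin, and Hmmr, a spindle protein, fell by 2.77 and 3.00 on the log2 scale. Cenpf was the member that did not pass (-0.24 ± 0.10, adjusted p = 0.0647), with overlap and no lung array well above background; without bone marrow replicate 2 it was at -0.35 (adjusted p = 0.00681). It also passed under 6 alternatives, among them the processed signal (-3.03, adjusted p = 0.000211) and median scaling (-0.95, adjusted p = 5.43e-05). Between 21 and 22 of the 22 fell when any 1 array was left out, and the median ran from -2.27 without lung replicate 1 to -1.74.

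DNA replication genes had 20 of 23 tested members lower, 17 over 2-fold, none higher and a median of -1.30. Rrm2, the regulated subunit of ribonucleotide reductase, had 10.28, 9.16 and 9.25 on the lung arrays, against 12.44, 12.57 and 12.43 on the bone marrow arrays (-2.92 ± 0.27). Mcm7, a subunit of the replicative helicase, had 9.98, 9.29 and 9.52 on the lung arrays, against 12.01, 12.18 and 11.91 on the bone marrow arrays (-2.44 ± 0.17, adjusted p = 1.22e-05). All 6 helicase subunits, Mcm2 to Mcm7, fell, by 1.07 for Mcm4 at the least. Cdc45, a partner of that helicase, fell by 2.29 on the log2 scale, and 3 members overlapped. The replication-linked histones H1f1, with 7.32, 7.31 and 7.36 on the lung arrays, against 12.80, 13.08 and 12.58 on the bone marrow arrays, and H3c14, with 9.32, 9.18 and 9.34 on the lung arrays, against 14.68, 14.59 and 14.75 on the bone marrow arrays, were among the 15 lowest of all named genes, at -5.49 ± 0.12 and -5.39 ± 0.075. H2ax, the histone variant of DNA damage, fell by 3.47. The histone list as a whole had 5 members higher and 5 lower of 13, and its median of -0.095 became 0.54 when arrays were scaled by their median alone.

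The promoters of 5 mitosis genes are shown because CCAAT boxes and the cell cycle homology element are the sequences through which genes of late cell cycle are known to be switched together. Each line gives the 250 bases before the RefSeq start (GRCm38.p6), 5′ to 3′ on the gene's strand, and capitals mark CCAAT and TTTGAA on either strand. Cdc20 lies at chr4:118437344-118437593 (minus strand), Ccnb2 at chr9:70421555-70421804 (minus), Plk1 at chr7:122159185-122159434 (plus), Mki67 at chr7:135716380-135716629 (minus) and Top2a at chr11:99024190-99024439 (minus).
Cdc20: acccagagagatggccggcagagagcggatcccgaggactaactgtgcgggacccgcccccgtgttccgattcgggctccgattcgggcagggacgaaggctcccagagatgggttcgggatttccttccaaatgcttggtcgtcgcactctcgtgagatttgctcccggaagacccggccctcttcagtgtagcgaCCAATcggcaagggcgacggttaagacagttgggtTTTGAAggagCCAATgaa
Ccnb2: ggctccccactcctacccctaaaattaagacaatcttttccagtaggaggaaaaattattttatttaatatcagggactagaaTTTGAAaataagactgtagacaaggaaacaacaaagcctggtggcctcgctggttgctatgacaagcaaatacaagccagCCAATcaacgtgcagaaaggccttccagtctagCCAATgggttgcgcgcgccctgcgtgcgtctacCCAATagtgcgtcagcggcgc
Plk1: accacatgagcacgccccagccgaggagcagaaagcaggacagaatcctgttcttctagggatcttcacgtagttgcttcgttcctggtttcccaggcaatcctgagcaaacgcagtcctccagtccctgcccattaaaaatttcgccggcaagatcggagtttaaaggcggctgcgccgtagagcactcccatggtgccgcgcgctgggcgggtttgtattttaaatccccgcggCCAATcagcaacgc
Mki67: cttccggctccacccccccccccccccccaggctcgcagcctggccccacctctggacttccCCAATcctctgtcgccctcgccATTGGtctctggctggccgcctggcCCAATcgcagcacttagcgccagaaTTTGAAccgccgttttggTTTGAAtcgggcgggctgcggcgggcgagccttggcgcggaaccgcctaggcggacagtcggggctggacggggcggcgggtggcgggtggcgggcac
Top2a: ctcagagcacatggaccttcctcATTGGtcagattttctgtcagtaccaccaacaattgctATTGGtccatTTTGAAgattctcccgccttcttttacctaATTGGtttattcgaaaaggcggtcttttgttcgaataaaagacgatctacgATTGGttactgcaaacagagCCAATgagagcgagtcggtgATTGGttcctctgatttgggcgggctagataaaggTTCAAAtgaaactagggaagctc
A search on both strands used 1 window of that length per gene. It found CCAAT in 17 of 19 mitosis genes with a window (89.5%), in 13 of 19 DNA replication genes (68.4%) and in 34.5% of all 27025 genes with a window. TTTGAA was in 7 of 19 mitosis genes (36.8%), 3 of 19 replication genes (15.8%) and 16.3% of those 27025 genes. Among the promoters shown, that of Plk1 had no TTTGAA. These matches are a description of letters near the start, and binding was not measured.

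Macrophage genes were higher in lung. Of 19 tested alveolar macrophage markers, 16 rose, all over 2-fold, 1 fell and the median was 1.81. Of 19 tested interstitial macrophage markers, 18 rose, none fell and the median was 2.74. Across all genes 35.6% rose and 8.44% rose over 2-fold. Marco, a scavenger receptor of lung macrophages, had 13.10, 12.93 and 12.997 on the lung arrays, against 7.12, 7.14 and 6.95 on the bone marrow arrays, a 61.3-fold difference (5.94 ± 0.080, adjusted p = 2.26e-08). Itgax, which encodes CD11c and whose probe lay at chr7:135294052-135294111 (mm9), had 11.57, 11.43 and 11.58 on the lung arrays, against 6.35, 6.45 and 6.48 on the bone marrow arrays; it was not well above background on any bone marrow array and was at least 34.3-fold higher (adjusted p = 2.26e-08). Ctsk, cathepsin K, had 12.35, 11.79 and 11.86 on the lung arrays, against 6.46, 6.37 and 6.48 on the bone marrow arrays and was at least 47.4-fold higher. For each of these genes the 3 lung values lay within 1 log2 unit of each other and far above bone marrow.

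Other alveolar macrophage genes were also higher in lung. Pparg, the nuclear receptor that sets the alveolar fate, had 8.75, 8.99 and 9.10 on the lung arrays, against 7.04, 7.13 and 7.22 on the bone marrow arrays (1.81 ± 0.10). Fabp4, a fatty acid binding protein, had 8.93, 8.89 and 9.47 on the lung arrays, against 6.44, 6.30 and 6.76 on the bone marrow arrays (2.59 ± 0.18). Plet1 and Krt19 were not well above background on any bone marrow array and were at least 11.7-fold and 3.60-fold higher. Siglecf, the sialic acid lectin that defines alveolar macrophages and eosinophils, did not follow them: it had 7.79, 7.81 and 8.10 on the lung arrays, against 7.95, 7.74 and 7.90 on the bone marrow arrays, with overlap (0.036 ± 0.10, adjusted p = 0.771). Car4, carbonic anhydrase 4, gave -0.72 on its brightest probe and 1.71 on the other. The summed signal of the alveolar list ran from 84560 to 119600 in lung and from 66910 to 75140 in bone marrow, and the part of resident alveolar macrophages in the lung values was not tested.

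The C1q chains, which start the classical complement pathway, led the interstitial list. C1qc had 11.67, 11.97 and 12.42 on the lung arrays, against 6.46, 6.73 and 6.62 on the bone marrow arrays (5.41 ± 0.18, adjusted p = 4.49e-07). C1qa, at chr4:136452409-136452468 (mm9), had 11.10, 11.45 and 11.89 on the lung arrays, against 6.16, 6.44 and 6.52 on the bone marrow arrays and was at least 34.5-fold higher, and C1qb had 10.62, 10.86 and 11.26 on the lung arrays, against 7.14, 7.67 and 7.18 on the bone marrow arrays (3.58 ± 0.19). In all 3 chains lung replicate 3 was the highest, and the lowest lung value was over 2 log2 units above the highest bone marrow value. Mrc1, the mannose receptor CD206, had 10.01, 10.54 and 10.996 on the lung arrays, against 6.86, 6.67 and 6.87 on the bone marrow arrays (3.72 ± 0.22). Folr2, folate receptor beta, and Lyve1, a hyaluronan receptor, were not well above background on any bone marrow array and were at least 7.92-fold and 4.35-fold higher. Adgre1, which encodes F4/80, was well above background on every array and had 11.48, 11.86 and 11.80 on the lung arrays, against 10.26, 10.37 and 10.49 on the bone marrow arrays (1.34 ± 0.11), with 1.73 on its other probe. Mertk, the receptor for dying cells, was at least 3.75-fold higher. Stab1, a scavenger receptor, rose by 3.79 ± 0.14. The interstitial list summed to 39740 to 61920 on the lung arrays and 16960 to 20750 on the bone marrow arrays, and the part of lung macrophages in these values was not tested.

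MHC class II presentation rose in 10 of 12 tested genes, fell in none and had a median of 1.18. H2-Ab1, the beta chain of I-A, had 14.03, 14.22 and 14.52 on the lung arrays, against 10.93, 10.84 and 10.64 on the bone marrow arrays (3.46 ± 0.13, adjusted p = 8.32e-07), and its other probe gave 3.56. H2-Aa, the alpha chain, had 10.98, 11.31 and 11.85 on the lung arrays, against 7.26, 7.42 and 7.40 on the bone marrow arrays (4.02 ± 0.20), and Cd74, the invariant chain, had 13.62, 13.95 and 14.12 on the lung arrays, against 10.80, 10.51 and 10.52 on the bone marrow arrays (3.28 ± 0.14). Lung replicate 3 was highest for each, with no overlap. Ciita, the master activator of these genes, differed less, with 7.39, 7.53 and 7.69 on the lung arrays, against 7.12, 7.18 and 7.13 on the bone marrow arrays (0.40 ± 0.086, adjusted p = 0.00427). These signals were low in both tissues, where the offset shrinks log2 differences. The loading factors H2-DMa and H2-DMb1 rose by 1.09 ± 0.12 and 1.14 ± 0.10, and 2 members overlapped between the tissues. Dendritic cell markers had 12 of 15 tested members higher, 2 lower and a median of 1.11. Cd83, a marker of mature dendritic cells, had 12.10, 12.29 and 12.20 on the lung arrays, against 7.23, 6.68 and 6.73 on the bone marrow arrays (5.31 ± 0.15, adjusted p = 2.06e-07). Ccr7, which takes dendritic cells to lymph nodes, was at least 10.2-fold higher. Zbtb46, a factor of conventional dendritic cells, and Mgl2, a C-type lectin, fell by 0.62 and 1.40 on the log2 scale. The part of dendritic cells in the class II values was not tested.

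Genes of lipid uptake and efflux rose in 15 of 18 tested members and fell in none, with a median of 1.51. Nr1h3, the oxysterol receptor LXR alpha, had 10.32, 10.23 and 10.60 on the lung arrays, against 6.93, 7.12 and 6.997 on the bone marrow arrays (3.37 ± 0.11, adjusted p = 3.8e-07), with 3.01 on its other probe. Abcg1, a cholesterol exporter, had 11.09, 11.40 and 11.52 on the lung arrays, against 8.98, 8.79 and 8.72 on the bone marrow arrays (2.50 ± 0.12). Abca1, the other main exporter, was at least 4.96-fold higher in lung. Cholesterol synthesis did not share a direction: 7 of 22 rose, 9 fell and the median of -0.028 became 0.15 with median scaling, where 9 rose and 3 fell. Msmo1 and Sqle, enzymes of the later steps, rose by 1.09 ± 0.18 and 0.97 ± 0.19. Complement genes other than C1q were also higher, so that 15 of 18 tested rose and 1 fell, with a median of 1.10. C5ar1, the receptor for C5a, had 8.73, 8.50 and 8.56 on the lung arrays, against 6.79, 7.04 and 7.20 on the bone marrow arrays (1.59 ± 0.12), and Cfb, factor B, rose by 1.12 ± 0.21.

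Chemokine genes were higher in lung in 20 of 21 tested members, each over 2-fold, with none lower and a median of 2.62. No bone marrow array was well above background for 9 of the 21. Cxcl2, a neutrophil attractant, had 11.59, 10.96 and 10.40 on the lung arrays, against 6.72, 6.70 and 6.21 on the bone marrow arrays (4.44 ± 0.28, adjusted p = 8.89e-06). Ccl5, a T cell and monocyte attractant, had 11.87, 11.54 and 11.75 on the lung arrays, against 7.57, 7.51 and 7.06 on the bone marrow arrays (4.34 ± 0.15). Cxcl10, an interferon-induced attractant of T cells, had 13.13, 12.02 and 12.29 on the lung arrays, against 8.38, 8.33 and 7.47 on the bone marrow arrays (4.42 ± 0.33, and 1.42 on its other probe). The tissues did not overlap in any of them. Ccl4 had 13.52, 13.23 and 13.11 on the lung arrays, against 10.49, 10.20 and 7.54 on the bone marrow arrays (3.87 ± 0.69, adjusted p = 0.0017). Ccl2, the main ligand of CCR2, had 12.61, 12.09 and 12.19 on the lung arrays, against 11.02, 11.04 and 8.91 on the bone marrow arrays (1.97 ± 0.53, adjusted p = 0.0121). Bone marrow replicate 3 lay more than 2 log2 units below the other bone marrow arrays for both, and without that array the differences were 2.94 for Ccl4 and 1.26 for Ccl2. Ccl8, Ccl12 and Cxcl13 were at least 15.8-fold, 15.1-fold and 12.9-fold higher, and Ccl6 did not pass (0.39 ± 0.16, adjusted p = 0.0548) here. Ccl6 passed without lung replicate 1 (0.56, adjusted p = 0.00366) and under 6 alternatives, among them median scaling (1.20, adjusted p = 7.6e-06).

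Immediate early genes, whose transcription answers a stimulus before any new protein is made, also rose in 16 of 22 tested members and fell in 2, with a median of 1.62. Fos had 13.83, 14.57 and 14.50 on the lung arrays, against 12.65, 11.82 and 11.76 on the bone marrow arrays (2.22 ± 0.28, adjusted p = 0.00026). Zfp36, which destabilises cytokine messages, had 10.87, 11.24 and 11.28 on the lung arrays, against 8.03, 7.84 and 7.58 on the bone marrow arrays (3.31 ± 0.15), and Dusp2, a MAP kinase phosphatase, had 13.81, 13.39 and 13.33 on the lung arrays, against 10.63, 10.38 and 9.88 on the bone marrow arrays (3.21 ± 0.20). Lung was higher on every array. Fosb had 11.89, 11.66 and 11.86 on the lung arrays, against 9.43, 8.49 and 7.58 on the bone marrow arrays (3.31 ± 0.40, adjusted p = 0.000219). Egr1 had 11.27, 11.41 and 11.59 on the lung arrays, against 11.11, 11.02 and 7.46 on the bone marrow arrays, a difference of 1.57 ± 0.88 that did not pass (adjusted p = 0.149) although the groups did not overlap. Bone marrow replicate 3 was the lowest array for both, and without it Egr1 was at 0.36 (adjusted p = 0.0242). Without that array, 17 members rose, 3 fell and the median was 1.24. Ier5 went the other way, with 9.95, 10.34 and 10.15 on the lung arrays, against 13.09, 12.67 and 11.89 on the bone marrow arrays (-2.40 ± 0.28), but its other probe gave -0.035.

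NF-kB targets and inflammatory cytokines rose in 21 of 24 tested genes and fell in 2, with a median of 1.14. Il1b, interleukin 1 beta, had 13.18, 12.72 and 12.38 on the lung arrays, against 9.20, 8.60 and 8.22 on the bone marrow arrays (4.09 ± 0.28, adjusted p = 1.12e-05). Tnfaip3, the feedback inhibitor A20, had 13.11, 12.40 and 12.15 on the lung arrays, against 9.64, 8.83 and 8.67 on the bone marrow arrays (3.51 ± 0.31), and Tnf had 10.73, 9.44 and 9.48 on the lung arrays, against 7.63, 7.85 and 7.39 on the bone marrow arrays (2.26 ± 0.33). Lung replicate 1 was the highest array for all 3, and no bone marrow value reached the lung values. Il6 was not well above background on any bone marrow array and was at least 4.64-fold higher. Nfkbia, the inhibitor IkB alpha, rose by 1.65 ± 0.31 and Relb by 1.28 ± 0.13. Nfkb1 gave -3.71 on its brightest probe, while its other probe gave 1.09, so no direction is given for it. Heat shock genes rose in 10 of 14 and fell in 1, with a median of 0.74. Hspa1a, the inducible HSP70, had 12.25, 12.56 and 12.93 on the lung arrays, against 7.34, 7.20 and 6.80 on the bone marrow arrays (5.47 ± 0.19, adjusted p = 6.08e-07). Hspb1, HSP27, had 13.08, 11.64 and 11.36 on the lung arrays, against 6.08, 6.15 and 6.16 on the bone marrow arrays; it was not well above background on any bone marrow array and was at least 58.2-fold higher, with lung replicate 1 the highest. Dnajb1, an HSP40 co-chaperone, rose by 0.48 ± 0.071, and 3 members did not pass.

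**Figure D3:**
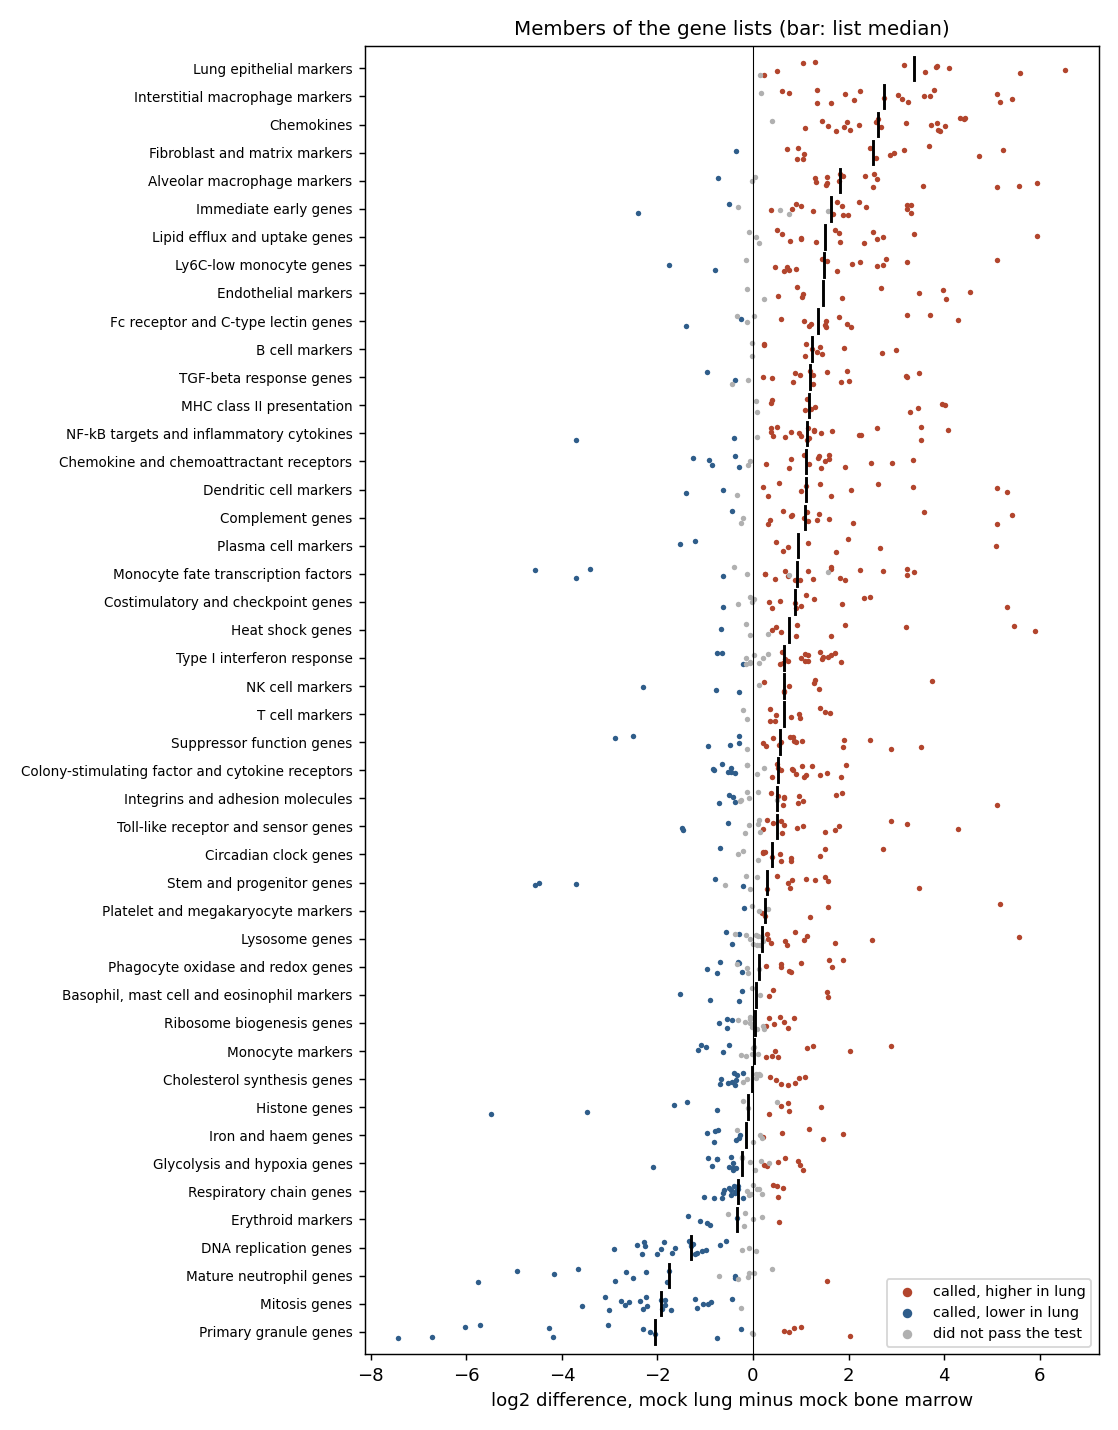
Log2 difference, mock lung minus mock bone marrow, of each tested member of the 46 gene lists (points) with each list's median (bar), ordered by median. Lung epithelial markers have the highest median, 3.38, and primary granule genes the lowest, -2.06; grey points did not pass at an adjusted p under 0.05.

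Chemokine and chemoattractant receptors had 15 of 22 tested members higher, 5 lower and a median of 1.12. Cxcr4, the receptor that retains cells in the marrow, had 10.32, 10.70 and 10.83 on the lung arrays, against 8.95, 9.03 and 9.31 on the bone marrow arrays (1.52 ± 0.15, adjusted p = 7.42e-05). Fpr1, a receptor for formyl peptides of bacteria, had 10.36, 9.96 and 10.11 on the lung arrays, against 8.44, 7.94 and 8.30 on the bone marrow arrays (1.92 ± 0.15), and S1pr1, which guides cells into blood, was at least 5.45-fold higher. Lung was higher on every array. Ltb4r1, the leukotriene B4 receptor, fell, with 11.34, 11.56 and 11.34 on the lung arrays, against 12.68, 12.66 and 12.68 on the bone marrow arrays (-1.27 ± 0.078, adjusted p = 7.38e-06). Among integrins and adhesion molecules 11 of 21 rose and 4 fell, with a median of 0.50, and 14 rose and none fell with median scaling. Icam1, the ligand of beta 2 integrins, had 8.002, 8.14 and 8.02 on the lung arrays, against 7.06, 7.09 and 7.11 on the bone marrow arrays (0.97 ± 0.066). Itga6, the laminin receptor chain, rose by 1.74 ± 0.32, Cd44, the hyaluronan receptor, by 0.62 ± 0.10 with all 4 of its probes higher.

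Receptors for colony-stimulating factors and cytokines had 15 of 26 members higher and 7 lower, with a median of 0.52, and 17 higher and none lower with median scaling. Tgfbr2 and Tgfbr1, the subunits of the TGF-beta receptor, rose by 1.95 ± 0.14 and 1.84 ± 0.085. Tgfbr2 had 10.89, 11.29 and 11.28 on the lung arrays, against 9.26, 8.96 and 9.38 on the bone marrow arrays. Ifngr1, of the interferon gamma receptor, went the other way, with 12.45, 12.56 and 12.55 on the lung arrays, against 13.33, 13.31 and 13.41 on the bone marrow arrays (-0.83 ± 0.065, adjusted p = 2.31e-05), but was at -0.067 with median scaling. TGF-beta response genes rose in 15 of 19 tested and fell in 2, with a median of 1.19. Thbs1, thrombospondin 1, had 12.81, 12.63 and 12.43 on the lung arrays, against 9.54, 8.34 and 9.57 on the bone marrow arrays (3.47 ± 0.31), and Id3 had 10.02, 9.80 and 9.67 on the lung arrays, against 6.73, 6.55 and 6.57 on the bone marrow arrays (3.21 ± 0.10, adjusted p = 3.64e-07). Id1, of the same family as Id3, fell by 0.97.

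Genes through which MDSCs are known to suppress T cells rose in 15 of 22 tested members and fell in 6, with a median of 0.57. Arg1, arginase 1, had 9.63, 8.51 and 9.11 on the lung arrays, against 6.16, 6.21 and 6.17 on the bone marrow arrays. It was not well above background on any bone marrow array and was at least 7.38-fold higher in lung (adjusted p = 3.24e-05). Cd274, which encodes PD-L1, had 10.08, 9.35 and 9.53 on the lung arrays, against 7.36, 7.22 and 7.04 on the bone marrow arrays (2.45 ± 0.18, adjusted p = 1.87e-05). Ptgs2, cyclooxygenase 2, had 10.69, 9.95 and 9.62 on the lung arrays, against 6.70, 6.54 and 6.48 on the bone marrow arrays (3.51 ± 0.24). For these 3 genes lung replicate 1 was the highest array and the tissues did not overlap. Nos2, inducible nitric oxide synthase, differed less, with 7.87, 7.26 and 7.35 on the lung arrays, against 6.61, 6.80 and 6.73 on the bone marrow arrays (0.78 ± 0.16, adjusted p = 0.00295). Its signals were low in both tissues, where the offset shrinks log2 differences. Hmox1, haem oxygenase 1, rose by 1.87 ± 0.11, and Nt5e, CD73, was at least 3.67-fold higher. S100a8 and S100a9, also on this list, fell as given above. Cybb, the catalytic chain of the phagocyte oxidase, rose by 0.59 ± 0.10. Ido1 was not well above background on any lung array and was at least 1.22-fold lower. Stat3 and Vegfa had probes called in opposite directions, with 0.85 and -3.84 for Stat3 and -0.94 and 2.83 for Vegfa, so no direction is given for them.

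Costimulatory and checkpoint genes rose in 12 of 17 and fell in 1, with a median of 0.88. Havcr2, TIM-3, had 9.24, 9.18 and 9.36 on the lung arrays, against 6.94, 6.83 and 7.04 on the bone marrow arrays (2.32 ± 0.081, adjusted p = 5.55e-07), and Cd86 rose by 1.11 ± 0.091. Cd40 and Tnfsf9 (4-1BB ligand), costimulators of T cells, rose by 1.27 ± 0.087 and 1.86 ± 0.20. Fc receptor and C-type lectin genes had 13 of 18 higher and 2 lower, with a median of 1.35. Clec4n, dectin-2, had 12.58, 12.37 and 12.51 on the lung arrays, against 8.22, 8.31 and 8.08 on the bone marrow arrays (4.29 ± 0.087, adjusted p = 7.59e-08). Fcer1g, the shared signalling chain, and Fcgr4 rose by 1.52 ± 0.070 and 1.97 ± 0.10. Toll-like receptors and sensors rose in 14 of 22 and fell in 3, with a median of 0.50. Tlr2, a sensor of lipoproteins, rose by 1.05 ± 0.10, and Tlr9, a sensor of bacterial DNA, fell, with 9.34, 9.41 and 9.43 on the lung arrays, against 11.06, 11.02 and 10.51 on the bone marrow arrays (-1.47 ± 0.14).

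Transcription factors of monocyte fate rose in 18 of 26 members and fell in 4, with a median of 0.93. Bhlhe40 had 10.65, 9.77 and 9.90 on the lung arrays, against 7.56, 7.54 and 7.05 on the bone marrow arrays (2.72 ± 0.24), and Batf3 rose by 1.63 ± 0.12. Lung was higher on every array of these genes. Spi1, PU.1, which both monocytes and neutrophils need, had 8.14, 8.44 and 8.47 on the lung arrays, against 11.97, 11.49 and 11.81 on the bone marrow arrays (-3.40 ± 0.14, adjusted p = 1.14e-06) on its only kept probe. Runx1 and Ahr had probes in opposite directions, 0.78 and -1.93 for Runx1 and 1.92 and -0.52 for Ahr.

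Genes induced by type I interferon rose in 17 of 28 and fell in 3, with a median of 0.65. Rsad2, viperin, had 10.70, 10.09 and 10.36 on the lung arrays, against 8.67, 8.69 and 8.27 on the bone marrow arrays (1.84 ± 0.17, adjusted p = 5.75e-05), and Isg15 had 13.37, 12.45 and 12.58 on the lung arrays, against 11.14, 11.40 and 10.70 on the bone marrow arrays (1.72 ± 0.27). Bone marrow replicate 3 was the lowest array for Rsad2 and Isg15, and every lung value was higher. Circadian clock genes rose in 11 of 15 and fell in 1, with a median of 0.39, while under median scaling 6 rose and 4 fell (median 0.12); Per1 had 12.43, 12.43 and 12.34 on the lung arrays, against 10.998, 10.96 and 10.69 on the bone marrow arrays (1.52 ± 0.094) and 0.031 on its other probe, and Nfil3 rose by 1.40 ± 0.10. Redox genes had 9 of 19 higher and 6 lower, or 12 higher and 1 lower with median scaling, with Gclc, for glutathione synthesis, at 1.66 ± 0.078 and Cat, catalase, at -0.74 ± 0.16.

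For the respiratory chain, glycolysis and iron lists the sign of the median turned with the scaling of the arrays, so no direction is given for them. Respiratory chain genes had 4 of 25 higher and 14 lower with a median of -0.32, and 15 higher and 1 lower with a median of 0.46 when arrays were scaled by their median. Glycolysis and hypoxia genes had 7 of 24 higher and 11 lower with a median of -0.22, and 0.35 with median scaling. Hk2, hexokinase 2, at 9.35, 9.28 and 9.19 on the lung arrays, against 11.31, 11.24 and 11.54 on the bone marrow arrays, was the glycolysis gene with the largest difference (-2.09 ± 0.094, adjusted p = 1.66e-06). Iron and haem genes had 5 of 16 higher and 7 lower, with Slc11a1, the metal transporter of phagosomes, at 1.46 ± 0.071 and Tfrc, the transferrin receptor, at -0.97 ± 0.17; their median of -0.14 became 0.22 with median scaling. Lysosome genes had 11 of 24 higher and 3 lower, with a median of 0.20, and 21 higher and none lower with a median of 0.83 under median scaling. Lgmn, legumain, had 13.04, 12.99 and 12.92 on the lung arrays, against 10.41, 10.50 and 10.57 on the bone marrow arrays (2.49 ± 0.070, adjusted p = 2.22e-07), and 10 members did not pass. Ribosome biogenesis genes had 7 of 20 higher and 4 lower, none over 2-fold, with a median of 0.034. No direction is given for them, since 5 were higher and 7 lower without lung replicate 1 (median -0.045), 7 higher and 1 lower without lung replicate 2, 4 higher and 2 lower without bone marrow replicate 1, 4 higher and 1 lower without bone marrow replicate 2, and 11 higher and 1 lower with median scaling (median 0.36).

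Markers of cell types other than M-MDSCs were measured in the same RNA and were mostly higher in lung. Lung epithelial markers had 11 of 12 tested members higher and none lower, with a median of 3.38, and 8 of the 12 were not well above background on any bone marrow array. Sftpc, the surfactant protein C of alveolar type II cells, at chr14:70920899-70921159 (mm9), had 12.49, 13.33 and 12.55 on the lung arrays, against 6.26, 6.34 and 6.17 on the bone marrow arrays. It was at least 92.7-fold higher in lung (6.54 ± 0.21, adjusted p = 3.81e-07), the largest difference of any named gene in that direction. Scgb1a1, the secretoglobin of club cells, had 11.77, 12.94 and 11.89 on the lung arrays, against 6.68, 6.59 and 6.56 on the bone marrow arrays (5.59 ± 0.28, adjusted p = 2.7e-06). Lung replicate 2 was the highest array for both, as for Sftpb, Sftpd and Sftpa1, which were at least 14.1-fold, 12.1-fold and 8.81-fold higher. Krt8 and Krt18, keratins of simple epithelia, were highest on lung replicate 1 instead. Krt18 had 12.20, 10.44 and 9.46 on the lung arrays, against 6.81, 6.77 and 6.97 on the bone marrow arrays (3.85 ± 0.59), a difference of 3.10 without lung replicate 1 and 4.47 without lung replicate 3. Krt8 rose by 4.10 ± 0.51, and by 3.43 without lung replicate 1. The list summed to 15310 to 26560 in lung and 1747 to 2096 in bone marrow. Of the 15 listed markers 3 were not tested because their probes were too dim in both tissues.

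Endothelial markers had 10 of 12 higher, none lower and a median of 1.46, with sums of 9270 to 12860 in lung and 2055 to 2128 in bone marrow. Ramp2, an adrenomedullin receptor subunit, had 10.44, 11.18 and 10.88 on the lung arrays, against 6.22, 6.29 and 6.35 on the bone marrow arrays and was at least 23.4-fold higher. Cldn5, a tight junction protein of endothelium, was at least 15.4-fold and Cdh5, VE-cadherin, at least 6.28-fold higher, while Pecam1 did not pass (-0.14 ± 0.083, adjusted p = 0.181). Fibroblast and matrix markers had 13 of 14 higher and 1 lower, with a median of 2.51 and sums of 15390 to 21100 in lung and 9683 to 11310 in bone marrow. Sparc, a matrix protein, had 12.29, 12.27 and 11.74 on the lung arrays, against 6.85, 6.63 and 7.13 on the bone marrow arrays (5.23 ± 0.18), with 2.00 on its other probe. Mgp, matrix Gla protein, was at least 25.9-fold and Dcn, decorin, at least 12.6-fold higher. Col1a1 had 9.59, 9.37 and 8.31 on the lung arrays, against 6.64, 6.64 and 6.63 on the bone marrow arrays (2.45 ± 0.29). Lung replicate 3 was the lowest lung array for Sparc, Mgp and Col1a1. The part of epithelial, endothelial and stromal RNA in the other lung differences was not tested.

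B cell markers had 11 of 13 tested members higher, none lower and a median of 1.23 (9 higher and 4 lower with median scaling), with sums of 3946 to 5678 in lung and 1681 to 1811 in bone marrow. Ms4a1, CD20, was at least 7.73-fold higher and was not well above background on any bone marrow array. Plasma cell markers had 8 of 10 higher and 2 lower, and sums of 13090 to 14380 in lung and 6526 to 7401 in bone marrow. Jchain, the joining chain of secreted antibodies, had 11.73, 11.23 and 11.85 on the lung arrays, against 6.45, 6.55 and 6.55 on the bone marrow arrays (5.09 ± 0.15, adjusted p = 2.98e-07). T cell markers had 10 of 12 higher and none lower (6 higher and 2 lower with median scaling), with a median of 0.64 and sums of 2848 to 3298 in lung and 1912 to 2078 in bone marrow; Cd3e had 9.23, 9.01 and 9.18 on the lung arrays, against 8.24, 8.23 and 8.06 on the bone marrow arrays (0.96 ± 0.086). NK cell markers had 8 of 12 higher and 3 lower, but 4 higher and 5 lower with median scaling, and 0 higher and 3 lower of the 3 well above background on all 6 arrays, so no direction is given for them. They had sums of 3123 to 3428 in lung and 4083 to 4809 in bone marrow, of which Nkg7 was the largest part in bone marrow. Gzma, granzyme A, was at least 13.4-fold higher.

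Of the marrow lineages, erythroid markers had 1 of 11 tested members higher and 5 lower, with a median of -0.34, and none higher and 8 lower with median scaling. Slc4a1, the anion exchanger of red cells, had 6.52, 6.48 and 6.60 on the lung arrays, against 7.43, 7.31 and 8.19 on the bone marrow arrays (-1.11 ± 0.21, adjusted p = 0.00235), and bone marrow replicate 3 was the highest array. The list summed to 1978 to 3342 in lung and 3951 to 8314 in bone marrow. Platelet and megakaryocyte markers had 5 of 9 higher and 1 lower, with sums of 3741 to 4676 in lung and 820.2 to 845.5 in bone marrow, and most of the lung sum was Pf4. Pf4, platelet factor 4, which some macrophages also make, had 11.31, 11.42 and 11.84 on the lung arrays, against 6.40, 6.28 and 6.36 on the bone marrow arrays and was at least 36.1-fold higher. Basophil, mast cell and eosinophil markers had 4 of 10 higher and 4 lower; Prg2, eosinophil major basic protein, fell by 1.52 with bone marrow replicate 3 highest. For the last 2 lists the sign of the median turned with median scaling. The part of any of these cells in the differences above was not tested.

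**Figure D4:**
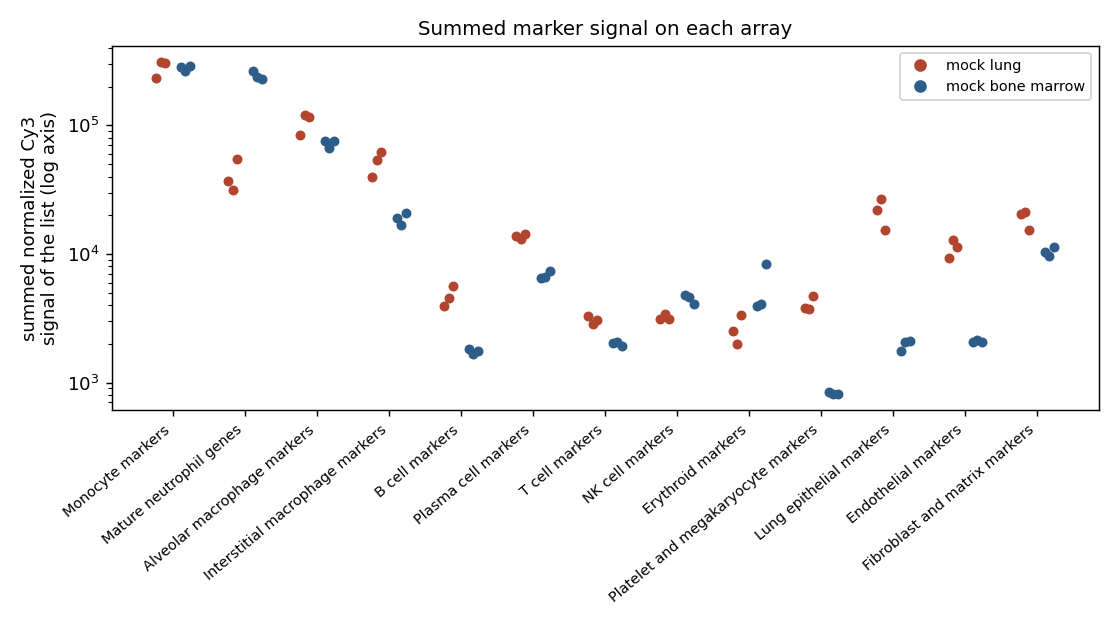
Summed normalized Cy3 signal of each marker list on each array (log axis), mock lung in red left of mock bone marrow in blue. Monocyte marker sums overlap, at 232600 to 308800 in lung and 266200 to 291000 in bone marrow, neutrophil sums are lower in lung, and lung epithelial and endothelial sums are higher in lung; sums include the offset, so a gene at background still adds to them.

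The remaining genes at the ends of the ranking belonged to no single list. Tgm2, transglutaminase 2, had 13.39, 12.53 and 12.52 on the lung arrays, against 6.93, 6.95 and 7.11 on the bone marrow arrays, and its 2 probes gave 5.82 and 5.05 (adjusted p = 8.13e-07). Rhox5, a homeobox gene of the reproductive cluster on chromosome X, had 12.63, 11.01 and 10.87 on the lung arrays, against 6.21, 6.49 and 6.45 on the bone marrow arrays; it was not well above background on any bone marrow array and was at least 34.7-fold higher, with lung replicate 1 the highest. Grm2, a metabotropic glutamate receptor, had 7.88, 7.93 and 8.03 on the lung arrays, against 13.43, 13.40 and 13.02 on the bone marrow arrays (-5.33 ± 0.12) on its only kept probe. For 6 more of the 15 lowest genes another probe was kept. Eif2s3x, a translation initiation subunit, gave -5.16 and -2.49. Tns1, tensin 1, gave -5.95 on its brightest probe and 1.90 on the other. Lrrc2, Atp2a2, Hap1 and Icmt gave -5.86, -5.30, -5.25 and -5.06 on the brightest probe and up to 0.17, 0.46, -0.20 and 0.62 on another, so their place at the low end holds for 1 probe only.

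Over the whole array, 4163 genes had at least 2 kept probes, and for 756 of them (18.2%) probes were called in opposite directions. All probes were higher in lung for 655 genes and lower for 789, and every probe passed 2-fold for 90 (2.16%) and 108 (2.59%). Of the 15 lowest genes, 8 had at least 2 probes, and in 3 all were over 2-fold lower, namely Mpo, Camp and Eif2s3x. Of the 15 highest genes, 2 had at least 2 probes, Tgm2 and Sparc, and all their probes were over 2-fold higher. Genes chosen after their values were seen because every probe passed 2-fold included Hilpda, a lipid droplet protein, at 2.76 to 2.93, Acp5, an acid phosphatase of macrophages, at 2.61 to 2.64, and Cbr2, a lung carbonyl reductase, at 2.04 to 4.27. On the low side they included Lyst, a regulator of lysosome size, at -4.55 to -3.90, Hjurp, a centromere chaperone, at -3.91 to -2.99, and Stmn1, a microtubule regulator, at -3.32 to -2.93.

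**Figure D5:**
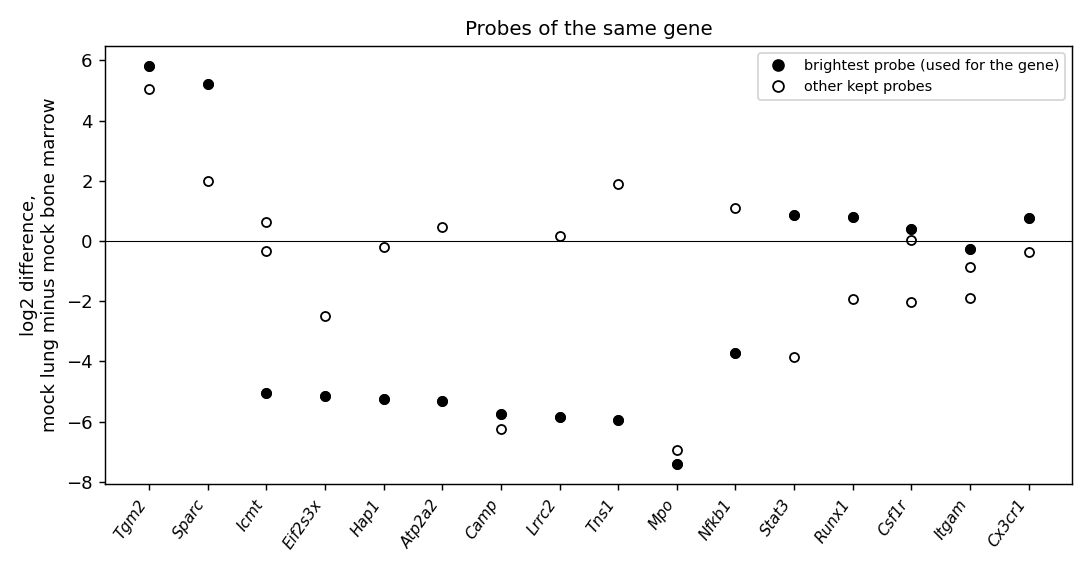
Log2 difference, mock lung minus mock bone marrow, of every kept probe of genes at the ends of the ranking and of Nfkb1, Stat3, Runx1, Csf1r, Itgam and Cx3cr1. Filled points are the brightest probe used for the gene; for Mpo, Camp and Tgm2 the probes lie close together, while for Tns1 and Nfkb1 they lie on opposite sides of 0.

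The treated RNA in the Cy5 channel gave lung and bone marrow values from other mice on the same 2 slides, analysed in the same way. Of 3354 genes over 2-fold different in mock cells with a treated value, 3268 were called in the same direction in treated cells, where 13154 of 19637 genes were called. Mpo differed by -7.65 in treated cells and -7.42 in mock cells, and C1qc by 7.98 in treated cells and 5.41 in mock cells. Among treated cells Ly6c1 was lower in lung than in bone marrow (-1.20, adjusted p = 0.000376), where the difference between mock tissues was 0.0015. Cx3cr1 differed between the tissues by 3.40 in treated cells and 0.75 in mock cells. Whether these differences themselves changed with treatment was not tested.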

How the data were processed

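The deposited scanner files hold Cy3 and Cy5 intensities for each spot, made with Agilent Feature Extraction 10.7.3.1 (protocol GE2_107_Sep09, per the file headers); limma is named in the submitters' processing notes with no role. Mock RNA was labelled with Cy3 and treated RNA with Cy5 on every array with no dye swap, per the labels. The intensity values used were the mean Cy3 signal and its local background, per the file headers, and all later steps were computed from them. Background was corrected by normexp with an offset of 50, the 6 Cy3 channels were quantile normalized, and log2 values of spots of a probe were averaged (limma 3.58.1, R 4.3.3), since the deposited intensities are not on a log2 scale. Control spots and probes well above background on fewer than 2 arrays of each tissue were left out. Of all probes, 26581 took their gene symbol from RefSeq through an accession, 2597 through a symbol, 492 through a synonym and 9759 kept the name in the file; 6044 of the 20215 genes carry only an identifier.

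The tissues were compared with lmFit and eBayes, with Benjamini-Hochberg adjustment over all genes, and called at an adjusted p under 0.05. Replicates are separate biological samples per the design text, each of 1 to 2 mice. Same-numbered lung and bone marrow arrays deviated from their group means with correlations of -0.164, -0.121 and -0.0646. Such correlations cannot show whether same-numbered samples came from the same mice, so pairing is not known from them. The main fit used no block. On simulated normalized gene values with independent noise and 200 changed genes of 20211, limma recovered 90% of changes of 1 log2 unit. It recovered 99% of changes of 2, with 7 false calls. Background correction, normalization, the filter, the choice of probe and a slide effect were not simulated. Far fewer genes were changed there than the 69% called in the data, so these rates do not carry over to the comparison. The lists and the comparison were chosen with earlier results of these data known. Genes were named by a rule: the 15 highest and 15 lowest differences without overlap, the 6 (or fewer) lowest p-values within a list, and 20 fixed myeloid genes; other names were chosen after their values were seen, and a few genes of the rule and lists are not reported here. The treated Cy5 channel was analysed in the same way for values set beside the mock cells. Probe positions are those of the files (mm9); exon and UTR annotations were not used here. Alternatives covered background correction, spot summary, normalization, the filter, the probe summary, the variance model, each array left out and a replicate block; 1 further alternative, genes with at least 2 concordant probes, was chosen after seeing the data.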

Additional observations from a re-analysis of the deposited data

How the results depend on the processing

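Counts of called genes stayed within 1.5 times under most alternatives. With the scanner's processed signal 8122 genes were over 2-fold (4228 higher, 3894 lower in lung), with median scaling 2857 were over 2-fold higher, and among probes well above background on all 6 arrays 4611 were called higher and 1135 over 2-fold higher. Restricted to genes with at least 2 probes all called alike, which leaves fewer genes by construction, 1444 were called (655 higher, 789 lower) and 198 over 2-fold (90 higher, 108 lower). Leaving out each array gave 12277 to 13699 called (6256 to 7139 higher, 6021 to 6572 lower) and 3291 to 3424 over 2-fold (1671 to 1720 higher, 1614 to 1717 lower). With a replicate block, 12960 genes were called (6639 higher, 6321 lower) and 3355 over 2-fold; of the named genes Ccr2 and Cx3cr1 no longer passed (adjusted p = 0.068 and 0.0656).

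Of 209 genes named in the text, 193 kept direction and call in all settings. Ly6c1, not called, was at 0.43 and called with median scaling (adjusted p = 0.0286), and uncalled at -0.33 with the processed signal, -0.079 with loess and -0.39 with the mean of all probes. With an array left out Ly6c1 was between -0.24 and 0.15, and the value of -0.24, without lung replicate 3, was called (adjusted p = 0.0409). Siglecf, not called, was at -0.0050 with median spot signals, -0.15 with loess and -0.029 with the mean of probes, and between -0.064 and 0.091 with an array left out. Itgam, not called, was called at 0.42 with median scaling (adjusted p = 0.0105) and at -1.01 with the mean of all probes (adjusted p = 0.000212). The mean of all probes gave 0.49 for Car4, -0.53 for Csf1r, -0.57 for Runx1, -1.50 for Stat3 and 0.94 for Vegfa, whose probes differ. List medians turned with median scaling for glycolysis (0.35), respiratory chain (0.46), cholesterol (0.15), iron (0.22), histone (0.54), platelet (-0.28) and basophil, mast cell and eosinophil genes (-0.41); with probes well above background on all 6 arrays for NK cell (-0.77) and basophil, mast cell and eosinophil genes (-0.47); and with the mean of all probes for monocyte markers (-0.14) and cholesterol genes (0.047); with the processed signal for histone genes (0.015); and without lung replicate 1 for ribosome biogenesis genes (-0.045), without lung replicate 3 for monocyte markers (-0.0032) and without bone marrow replicate 3 for histone genes (0.020). The median over all genes ran from -0.058 to 0.057. The cause of these shifts was not tested. Signal over background limits folds for genes dim in 1 tissue, and 3 arrays a tissue on 1 slide each cannot part tissue from slide.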

Other observations

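The Y-linked genes Ddx3y, Eif2s3y and Kdm5d were not well above background on any of the 3 lung or 3 bone marrow arrays, while both Xist probes were well above background on all of them.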
